A study of Mus musculus with 6 samples.

Results

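The interferon receptors of TCMK1 cells were encoded by 6 genes, Ifnar1, Ifnar2, Ifngr1, Ifngr2, Ifnlr1 and Il10rb, which were taken from the deposited table by gene symbol. They were 6 of the 28789 genes listed, and all 6 were among the 11483 genes that reached 1 FPKM in 3 or more of the 6 libraries. FPKM counts sequenced fragments relative to transcript length and to all mapped fragments of the library, so that levels of different genes can be set side by side. TCMK1 is a line of mouse kidney tubule epithelium. The control group held 3 libraries of cells given Ang II (angiotensin II, the vasoactive peptide hormone), labelled with the genotype control. The YOD1 group held 3 libraries of cells labelled YOD1 overexpression, also given Ang II, so no library shows the cells without the peptide. YOD1 is a deubiquitinase. The sources used here do not give the vector, the construct in the controls or the number of clones, and the labels do not say that replicates were separate cultures. The p-values therefore measure only how far these libraries spread, and that spread may be technical.

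Interferons signal through pairs of receptor chains that carry no enzyme of their own and rely on Janus kinases bound to their cytoplasmic tails. Type I interferons bind IFNAR1 and IFNAR2, which hold TYK2 and JAK1. Interferon gamma, the type II interferon, binds IFNGR1 and IFNGR2, which hold JAK1 and JAK2. Type III interferons bind IFNLR1, a chain found mainly on epithelia that holds JAK1, together with IL10RB, which holds TYK2 and also serves the receptors for interleukin 10 and interleukin 22. The kinases phosphorylate STAT proteins, of which STAT2 acts in a complex with IRF9 on genes with an interferon-stimulated response element (ISRE), while interferon gamma acts through gamma-activated sites (GAS). The title of the series names JAK2, and its stated purpose is a search for pathways under YOD1 control.

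Promoters are shown to set the letters of the receptor genes beside those of a gene that interferons induce. RefSeq promoters of build GRCm38.p6, 250 bases before to 50 bases after the start of transcription, were matched by symbol for 5 of the 6 receptor genes, all but Il10rb. The ISRE core (GAAA, any 2 bases, GAAA), the GAS core TTCNNNGAA and the GC box GGGCGG were searched on both strands. The sequences of Ifnlr1 (chr4:135686207-135686506, plus strand), which had the largest fold change of the receptors, and of Ifngr1 (chr10:19591699-19591998, plus strand), which had the smallest, carry their GC boxes in capitals, all of them on the opposite strand and so read as CCGCCC. The sequence of Isg15 (chr4:156200769-156201068, minus strand), an interferon-induced ubiquitin-like modifier, carries its 3 overlapping ISRE cores in capitals. Isg15 is an example only, since the window of Irf7, another interferon target (sequence not shown), held neither an ISRE core nor a GAS core.
Ifnlr1: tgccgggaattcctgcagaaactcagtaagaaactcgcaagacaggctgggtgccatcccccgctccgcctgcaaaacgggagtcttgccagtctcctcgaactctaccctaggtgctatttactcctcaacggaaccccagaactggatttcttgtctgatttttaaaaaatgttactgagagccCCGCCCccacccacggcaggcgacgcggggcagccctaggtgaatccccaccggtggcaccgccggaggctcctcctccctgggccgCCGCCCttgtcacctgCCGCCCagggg
Ifngr1: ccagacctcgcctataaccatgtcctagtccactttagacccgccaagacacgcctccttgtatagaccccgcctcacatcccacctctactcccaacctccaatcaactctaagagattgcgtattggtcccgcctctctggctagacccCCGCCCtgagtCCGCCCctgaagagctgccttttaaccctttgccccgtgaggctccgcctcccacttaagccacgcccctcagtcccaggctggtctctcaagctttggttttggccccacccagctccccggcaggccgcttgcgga
Isg15: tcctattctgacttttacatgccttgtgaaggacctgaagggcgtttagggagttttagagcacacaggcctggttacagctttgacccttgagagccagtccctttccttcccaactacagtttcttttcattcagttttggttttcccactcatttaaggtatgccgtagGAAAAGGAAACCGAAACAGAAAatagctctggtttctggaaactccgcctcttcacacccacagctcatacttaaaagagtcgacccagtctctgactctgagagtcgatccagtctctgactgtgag

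None of the 5 receptor promoters held the ISRE core, which was present in 3.44% of all 32851 promoters and in those of 11 of 18 matched genes from a list of 25 type I and III interferon targets. All 5 held a GC box, against 35.7% of all promoters, 5 of the 18 type I and III target genes and 8 of 15 matched type II target genes. All 6 signal transducer genes described below held one too. The GAS core was present upstream of Ifnar2 and at the start of Ifnar1, in 8.30% of all promoters, in 5 of the 18 and in 5 of the 15 target genes. The ISRE core was present in 7 of those 15. Ifnlr1 had 3 GC boxes, Ifngr1 had 2, Ifnar2 had 1, and Ifnar1 and Ifngr2 had 4 each. A match is a description of the letters in this window, and a missing match says nothing of sites elsewhere.

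The libraries differed in ways that move with the groups, and YOD1 libraries 2 and 3 stood apart in different measures. Yod1 itself stood at 0.684 to 0.842 FPKM in the controls and at 1.73, 7.56 and 1.86 FPKM in the YOD1 libraries, with library 2 the highest, and it is unknown here if reads of the introduced construct were counted as Yod1. Yod1 was below 1 FPKM in all controls and passed the filter only through the YOD1 libraries. The limma log2 fold change of Yod1 was 1.21 (adjusted p = 0.141) and 0.67 without YOD1 library 2, and the authors' deposited table marks it up. The ribosomal sequence Rn18s-rs5 took up 0.421% to 0.733% of all FPKM among controls and 2.17% to 3.90% among YOD1 libraries. Across genes, the difference of a library from the mean of all 6 had a Spearman correlation with transcript length of 0.18 to 0.34 in the controls and of -0.28, 0.13 and -0.45 in YOD1 libraries 1, 2 and 3. The part of these differences in the receptor values was not tested, apart from a correction of every library for length and GC content. Tubular markers were present, with Krt8, Krt18, Krt19, Cdh1, Cdh16, Epcam, Pax2, Pax8 and Aqp1 at 4.66 FPKM or more in every library, and Lrp2, an endocytic receptor of the proximal tubule, at 1.88 FPKM or more. The proximal tubule genes Slc34a1 and Cubn and the nephron progenitor gene Lhx1 were near 0. Of 13 tubular markers 10 were tested and none were called by limma. Cdh16 and Pax8 were lower without overlap (log2 fold changes -0.41 and -0.45). Krt8 and Krt18 were higher without overlap (0.35 and 0.36, or 0.20 and 0.22 without YOD1 library 3). Of all tested genes, 19.1% were lower and 9.77% higher without overlap. The 13 tubular markers summed to 724 to 839 FPKM among controls and to 800 to 1054 FPKM among YOD1 libraries. The T and NK cell markers listed, with 3 of 6 in the table, did not exceed 0.062 FPKM in any library, and those of dendritic cells did not exceed 0.131 FPKM. Of 6 macrophage markers, Ptprc, Adgre1 and Itgam were under the filter while Cd68, Csf1r and Lyz2 were tested, and the 6 summed to 24.6 to 35.5 FPKM among controls and to 27.8 to 38.5 FPKM among YOD1 libraries. Lyz2 was higher without overlap, at 1.47, 8.15 and 9.04 FPKM in the controls and at 10.5, 18.0 and 18.7 FPKM in the YOD1 libraries (log2 fold change 1.42, adjusted p = 0.158 in limma), and Adgre1 was higher without overlap at no more than 0.165 FPKM. Of 7 fibroblast markers 4 were tested, and the 7 summed to 103 to 148 FPKM among controls and to 138 to 139 FPKM among YOD1 libraries, mostly from Vim. The 4 endothelial markers summed to 0.674 to 1.33 FPKM among controls and to 1.24 to 2.10 FPKM among YOD1 libraries. Their part in the receptor values was not tested.

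The receptors had similar levels, apart from Ifnlr1. In the controls the mean level was 14.9 FPKM for Ifnar1, 13.6 FPKM for Ifnar2 and for Il10rb, 13.0 FPKM for Ifngr2 and 11.5 FPKM for Ifngr1. Each of these overlapped the next in the order of means, while the control ranges of Ifnar1 and Ifnar2 lay wholly above that of Ifngr1. Ifnlr1 stood at 5.45 FPKM and its highest control value of 6.12 FPKM lay below the lowest value of Ifngr1, 10.9 FPKM. In the YOD1 libraries the order was Ifnar1, Ifnar2, Ifngr1, Il10rb, Ifngr2 and Ifnlr1, again with overlap between all neighbours but the last pair. All 3 receptor types were thus represented by transcripts of both chains in every library.

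**Figure D1:**
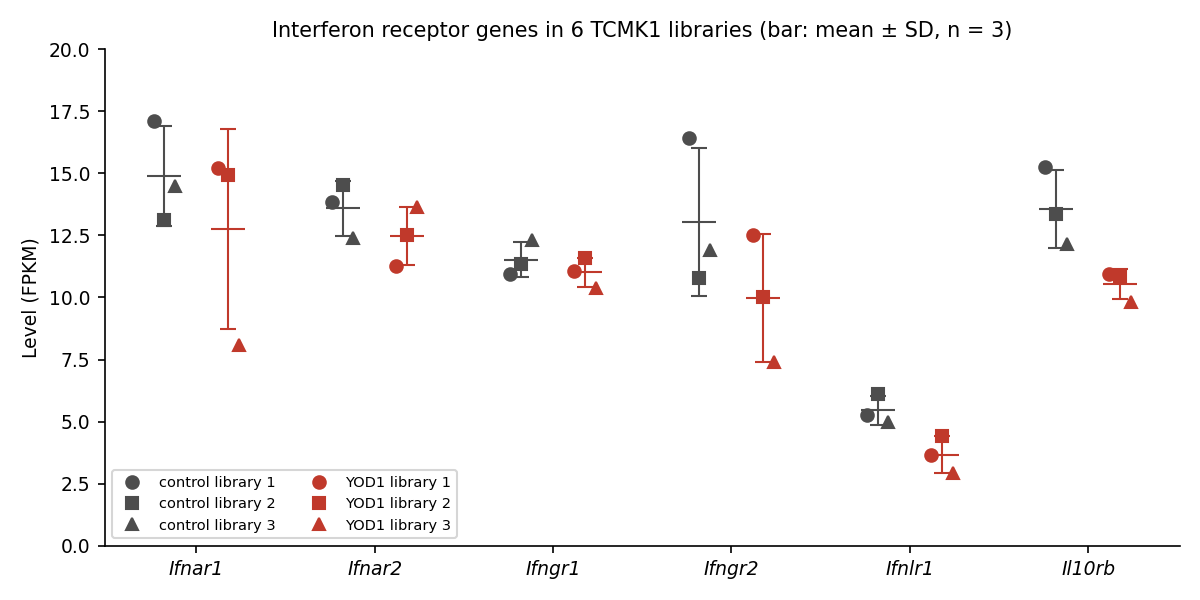
Level of each receptor gene (vertical axis, FPKM) in the 3 control and 3 YOD1 libraries, with the mean and SD of each group as a bar. The YOD1 values of Ifnlr1 and Il10rb lie below all 3 controls, the other 4 genes overlap between groups, and YOD1 library 3 has the lowest value of Ifnar1 (8.10 FPKM) and Ifngr2 (7.38 FPKM).

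No receptor gene passed the test in either direction, while both chains of the type III receptor lay lower in every YOD1 library than in every control. Groups were compared with limma on log2(FPKM + 1) over all 11483 genes, with Benjamini-Hochberg adjustment at 0.05, and 0 of the 6 receptors were called. Over all tested genes 0.444% were called higher and 0.0348% lower. At an unadjusted p under 0.05 in limma, 2 receptors were lower and 0 higher, against 13% of all tested genes in the lower direction. The same 2, Ifnlr1 and Il10rb, were lower without overlap between the groups, against 19.1% of all tested genes, and 0 receptors were higher without overlap, against 9.77%. All 6 log2 fold changes were below 0, as were 63.6% of all, although Ifngr1 turned positive with median-ratio scaling and Ifnar1 without YOD1 library 3, and their median was -0.29, against -0.10 over all tested genes. In bulk RNA, fewer cells of a type and less RNA per cell cannot be told apart.

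Ifnlr1 (ENSMUSG00000062157), the chain that gives the type III receptor its specificity, stood at 5.26, 6.12 and 4.98 FPKM in controls 1, 2 and 3 and at 3.64, 4.44 and 2.94 FPKM in YOD1 libraries 1, 2 and 3. The highest YOD1 value was below the lowest control. Means were 5.45 ± 0.59 and 3.67 ± 0.75 FPKM (SD, n = 3 each), a ratio of 0.673. YOD1 minus control came to -0.47 on the log2(FPKM + 1) scale, with an SE of 0.17 and an unadjusted 95% interval from -0.86 to -0.09 (adjusted p = 0.179 in limma), and 8.02% of tested genes had a lower fold change.

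Il10rb (ENSMUSG00000022969), the chain shared with interleukin 10 and interleukin 22 receptors, stood at 15.2, 13.4 and 12.1 FPKM in the controls and at 11.0, 10.8 and 9.83 FPKM in the YOD1 libraries. The groups did not overlap, and the YOD1 values were close to one another. Means were 13.6 ± 1.57 and 10.5 ± 0.61 FPKM (SD, n = 3 each). The log2 fold change was -0.33 with an SE of 0.14 and an unadjusted 95% interval from -0.65 to -0.02 (adjusted p = 0.222 in limma). It stood at -0.41 without control 3 and at -0.25 without control 1.

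The chains of the type I receptor overlapped between groups. Ifnar1 (ENSMUSG00000022967), which has a destruction motif read by a ubiquitin ligase and is cleared from the surface after it is ubiquitinated, stood at 17.1, 13.1 and 14.5 FPKM in the controls and at 15.2, 14.9 and 8.10 FPKM in the YOD1 libraries. Only YOD1 library 3 lay below the controls. The log2 fold change was -0.25 with an unadjusted 95% interval from -0.76 to 0.25 (adjusted p = 0.527 in limma), and it turned to 0.02 without YOD1 library 3. Ifnar2 (ENSMUSG00000022971), the chain that binds type I interferon with high affinity, stood at 13.8, 14.5 and 12.4 FPKM in the controls and at 11.3, 12.5 and 13.6 FPKM in the YOD1 libraries. Here YOD1 library 3 was the highest of its group. The log2 fold change of Ifnar2 was -0.11 with an unadjusted 95% interval from -0.42 to 0.19 (adjusted p = 0.642 in limma), and it was -0.03 with median-ratio scaling.

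Of the type II receptor, Ifngr1 (ENSMUSG00000020009), the ligand-binding chain, had the most even level of the 6 genes. It stood at 10.9, 11.3 and 12.3 FPKM in the controls and at 11.0, 11.6 and 10.4 FPKM in the YOD1 libraries. The log2 fold change was -0.06 with an unadjusted 95% interval from -0.35 to 0.23 (adjusted p = 0.806 in limma), and with median-ratio scaling it was 0.03. Ifngr2 (ENSMUSG00000022965), the chain that carries JAK2, stood at 16.4, 10.8 and 11.9 FPKM in the controls and at 12.5, 10.0 and 7.38 FPKM in the YOD1 libraries. Control 1 and YOD1 library 3 were the ends of its range, and the groups overlapped. Its log2 fold change was -0.36 with an unadjusted 95% interval from -0.84 to 0.11 (adjusted p = 0.331 in limma), -0.18 without YOD1 library 3 and -0.20 without control 1.

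The authors' deposited table marks none of the 6 receptors as significant, with q from 0.265 (Ifnlr1) to 0.986 (Ifngr1), among 190 genes it marks up and 96 it marks down. It lists Ifnlr1 with a fold ratio of 0.673 and Il10rb with 0.776.

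**Figure D2:**
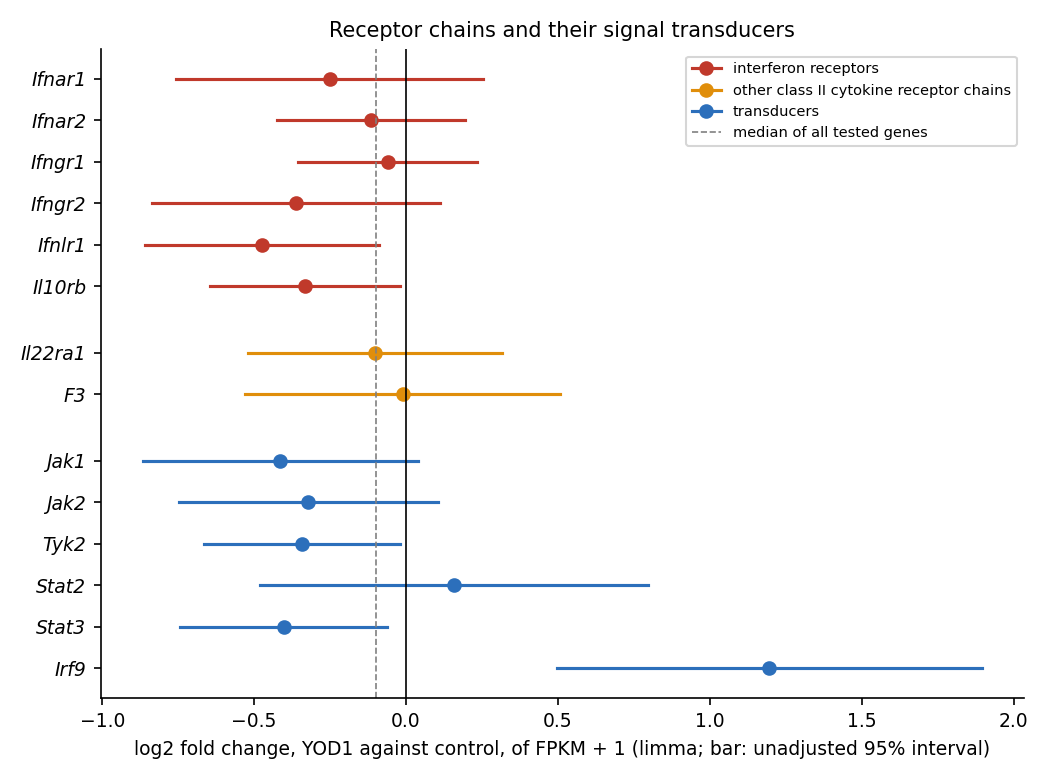
Log2 fold change of YOD1 against control for the receptor chains, the other tested chains of the same receptor family and the signal transducers (horizontal axis, log2 of FPKM + 1), with unadjusted 95% intervals from limma and a dashed line at the median of all tested genes, -0.10. The intervals of Ifnlr1, Il10rb, Tyk2 and Stat3 lie below 0 and that of Irf9 above 0, and no gene shown passed after adjustment over all genes.

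The balance between the chains of a receptor was taken within each library, as the log2 ratio of FPKM + 1. The FPKM of Ifnar1 was 1.24, 0.904 and 1.17 times that of Ifnar2 in the controls and 1.35, 1.19 and 0.594 times in the YOD1 libraries. The log2 ratio differed by -0.14 between the groups (exact two-sided permutation test, p = 0.9) and by 0.20 without YOD1 library 3. The FPKM of Ifngr1 was 0.667, 1.05 and 1.03 times that of Ifngr2 in the controls and 0.882, 1.16 and 1.41 times in the YOD1 libraries, a difference of 0.30 on the log2 scale (exact two-sided permutation test, p = 0.4), which was 0.10 without control 1 and 0.16 without YOD1 library 3. Ifnlr1 stood at 0.345, 0.458 and 0.411 times the level of Il10rb in the controls and at 0.332, 0.410 and 0.299 times in the YOD1 libraries, a difference of -0.14 (exact two-sided permutation test, p = 0.5). It was -0.06 without control 2 and -0.07 without YOD1 library 3. Adjusted over the 3 pairs, the exact permutation p-values were 0.75, 0.75 and 0.9, where 3 against 3 libraries cannot give a p below 0.1. Il10rb thus exceeded Ifnlr1 in all 6 libraries, and no pair showed a shift larger than its spread.

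The other chains of the class II cytokine receptor family were mostly near 0. Il22ra1, which joins Il10rb in the interleukin 22 receptor, stood at 3.67 ± 0.71 and 3.36 ± 0.73 FPKM (SD, n = 3 each), with a log2 fold change of -0.10 (adjusted p = 0.766 in limma). F3, tissue factor, which starts blood clotting and shares the fold of these receptors, stood at 8.44 and 8.67 FPKM as group means, with a log2 fold change of -0.01 (adjusted p = 0.981 in limma). Il10ra, the specific chain of the interleukin 10 receptor, averaged 0.135 and 0.128 FPKM, while Il20ra did not exceed 0.061 FPKM and Il20rb 0.219 FPKM in any library. Of the listed chains that pair with Il10rb, Ifnlr1 and Il22ra1 thus passed the filter and Il10ra did not. Of 23 ligand genes on the list, the table lists 3, none of which passed the filter. Ifnb1, interferon beta, is listed at 0 in 5 libraries and at 0.281 FPKM in YOD1 library 3. Ifnz did not exceed 0.312 FPKM, and Ifnl3, a type III interferon, is listed at 0.009 FPKM in control 1 and at 0 in the rest. The other ligand genes were not analysed here.

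Of 6 kinase, STAT and IRF9 genes that carry the receptors' signal, none passed the test over all genes. At an unadjusted p under 0.05 in limma, Irf9 was higher and Tyk2 and Stat3 lower, against 7.87% and 13% of all tested genes. Jak1, the kinase of IFNAR2, IFNGR1 and IFNLR1, stood at 7.76 ± 0.42 and 5.73 ± 1.73 FPKM (SD, n = 3 each), with a log2 fold change of -0.41 (adjusted p = 0.268 in limma). Tyk2, the kinase of IFNAR1 and IL10RB, stood at 10.97 ± 1.04 and 8.44 ± 0.77 FPKM (SD, n = 3 each), with a log2 fold change of -0.34 (adjusted p = 0.222 in limma). Both lay below the controls in 3 of 3 YOD1 libraries, as did Stat3, while 19.1% of all tested genes were lower without overlap. Jak2, the kinase of IFNGR2, had the lowest level of the kinases and overlapped between groups (1.71 and 1.14 FPKM, a log2 fold change of -0.32 with an adjusted p of 0.338 in limma). After correction for transcript length and GC content the log2 fold changes were -0.20 for Jak1, -0.18 for Tyk2 and -0.06 for Jak2. Without YOD1 library 3 Jak1 was at -0.19, and without control 3 Jak2 was at -0.15.

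Stat2, the partner of IRF9, had a log2 fold change of 0.16 (adjusted p = 0.765 in limma) with overlap, and YOD1 library 2 held its highest value, 14.7 FPKM. Without that library its log2 fold change turned negative, to -0.20. Stat3 had a log2 fold change of -0.40 (adjusted p = 0.189 in limma), which was -0.19 after length and GC correction. Irf9, the DNA-binding partner of STAT2, stood at 4.55, 5.68 and 5.94 FPKM in the controls and at 9.87, 25.4 and 9.82 FPKM in the YOD1 libraries. Its groups did not overlap, and 9.77% of all tested genes were higher without overlap. YOD1 library 2 held the highest value of Irf9, and without that library the log2 fold change was 0.77. With all libraries its log2 fold change was 1.20, with an unadjusted 95% interval from 0.50 to 1.90 (adjusted p = 0.115 in limma), while the authors' deposited table marks it as significant (q = 6.09e-05).

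Of 8 genes that damp the receptors, 7 were tested and 0 were called in either direction by limma. At an unadjusted p under 0.05, 1 was higher and 1 lower, against 7.87% and 13% of all tested genes. Usp18, which binds the tail of IFNAR2 and blocks its signal, stood at 1.12, 1.45 and 1.51 FPKM in the controls and at 7.84, 55.9 and 8.47 FPKM in the YOD1 libraries, a log2 fold change of 2.84 (adjusted p = 0.0759 in limma). It was higher in all 3 YOD1 libraries, most of all in library 2. Without that library its log2 fold change of 1.96 passed (adjusted p = 0.00188 in limma). The phosphatase gene Ptpn11 had a log2 fold change of -0.47 (adjusted p = 0.205 in limma), which was -0.23 after length and GC correction and -0.25 without YOD1 library 3. Ptpn1, which encodes a phosphatase that acts on JAK2 and TYK2, had 0.04 (adjusted p = 0.881 in limma). Ptpn6 had -0.06 (adjusted p = 0.834 in limma). Socs1, an inhibitor of JAK1 and JAK2, was under the filter, at 0.095 to 0.280 FPKM.

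Of 11 genes linked to the ubiquitination of the receptors or to their sorting after uptake, none passed the test. All 11 were tested, 0 were called by limma in either direction, and 2 were lower at an unadjusted p under 0.05. Of all tested genes 13% were. Their median log2 fold change was -0.30, and -0.06 after correction for length and GC content. Those with the highest mean levels were Hgs, an ESCRT subunit that binds ubiquitinated cargo (log2 fold change -0.03), Fbxw11, a substrate adaptor of the ligase for IFNAR1 (-0.19), Rbx1, a subunit of that ligase (-0.03), and Tsg101, another ESCRT subunit (-0.30). Without YOD1 library 3, Fbxw11 was at -0.01 and Tsg101 at -0.15, and after the correction Fbxw11 was at -0.03, Rbx1 at 0.10 and Btrc, the other adaptor of that ligase, at 0.12. The 2 at an unadjusted p under 0.05, named after their values were seen, were Vps35, a retromer subunit (log2 fold change -0.78, adjusted p = 0.132 in limma, and -0.51 after that correction), and Eif2ak3, the endoplasmic reticulum stress kinase PERK (-0.55, adjusted p = 0.136 in limma).

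Some interferon target genes were called higher in the YOD1 libraries, in which no receptor gene was. Of 25 type I and III targets, 16 were tested, 4 were called higher by limma (Irf7, Ifi27, Ifitm3 and Bst2) and 0 lower. The shares called over all tested genes were 0.444% higher and 0.0348% lower. At an unadjusted p under 0.05 in limma, 13 of the 16 were higher and 0 lower, against 7.87% and 13% of all tested genes. Ifit2 and Eif2ak2, named after their values were seen, had log2 fold changes of -0.24 and -0.07 (adjusted p = 0.523 and 0.915 in limma). Genes under the filter were left out of these counts, so they are not a count of all targets. Of the 16, 6 were at 1 FPKM in fewer than 3 controls and passed the filter only with YOD1 libraries. They were Ifit3, Oas3, Oasl2, Xaf1, Rtp4 and Dhx58, and all 6 were among the 13. Rtp4 and Xaf1 were below 1 FPKM in all controls. Of 21 type II targets, 10 were tested and 0 were called by limma in either direction. Of the 10, 2 were at 1 FPKM in fewer than 3 controls, Gbp2 and Icam1, and passed the filter only with YOD1 libraries. At an unadjusted p under 0.05 in limma 7 were higher, against 7.87% of all tested genes, and 0 lower, against 13%. Gbp2 and Icam1 were among the 7. Of the 10 tested, Irf1, a transcription factor induced by interferon gamma, stood at 24.95 and 23.6 FPKM with a log2 fold change of -0.07 (adjusted p = 0.793 in limma), and Cd74, the invariant chain of MHC class II, at 19.7 and 23.7 FPKM (0.22, adjusted p = 0.544 in limma, and 0.003 without YOD1 library 3). Tap1, which carries peptides to MHC class I, stood at 8.22 and 14.5 FPKM (0.70, adjusted p = 0.153 in limma, and 0.42 without YOD1 library 2), and the chemokine Cxcl10 at 4.53 and 11.0 FPKM (1.11, adjusted p = 0.0523 in limma). Cxcl10 passed without control 3 (adjusted p = 0.0316 in limma) and without YOD1 library 3 (0.0328) and with median-ratio scaling (0.0176). In those settings genes called higher over all genes rose from 51 to 145, 107 and 136. Bst2 did not pass without control 1 (adjusted p = 0.081 in limma), without control 2 (0.105) or after length and GC correction (0.0646), and with no filter on low values none of the 4 passed.

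The YOD1 library with the highest interferon targets was not the one with the lowest receptors. The 16 tested type I and III targets had a median difference from the control mean of 0.92, 2.69 and 1.25 on the log2 scale in YOD1 libraries 1, 2 and 3. Over the 10 of them with at least 1 FPKM in all 3 controls, the medians were 1.08, 2.27 and 1.52. The receptors had medians of -0.15, -0.17 and -0.57 in the same libraries, and all tested genes -0.06, -0.04 and -0.18. YOD1 library 2, with the highest targets, thus had receptors at about the level of library 1, and library 3 had the lowest receptors. Within library 3, Ifnar1, Ifngr2 and Ifnlr1 stood at -0.80, -0.72 and -0.71, Il10rb at -0.42, Ifngr1 at -0.13 and Ifnar2 at 0.01. Ifnar1, Ifngr2 and Ifnlr1 have the longest transcripts of the 6, and library 3 had the lowest correlation with transcript length (-0.45). The part of length in these library values was not tested beyond the correction for length and GC content. The sum of the 6 receptors was 68.2 to 78.8 FPKM in the controls and 64.7, 64.3 and 52.3 FPKM in YOD1 libraries 1, 2 and 3.

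**Figure D3:**
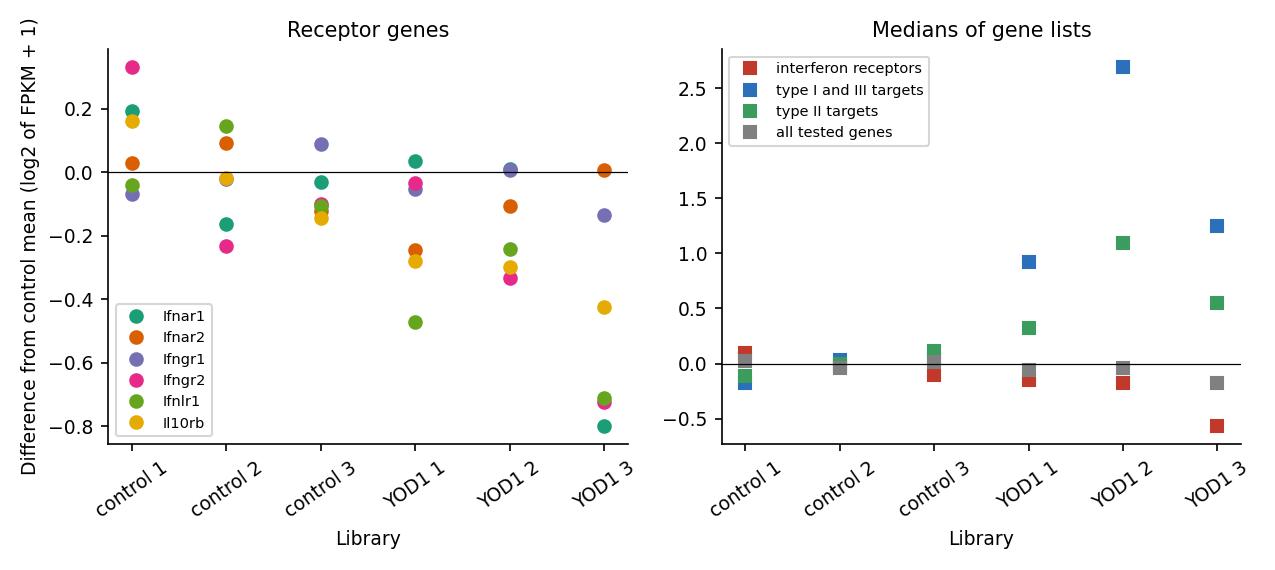
Difference of each library from the control mean on the log2(FPKM + 1) scale, for the 6 receptor genes (left) and as medians of the tested genes of each list (right). The medians of the type I and III targets reach 2.69 in YOD1 library 2, while the receptor median is lowest in YOD1 library 3 (-0.57). Over the 10 targets with at least 1 FPKM in all controls, not drawn, the median in YOD1 library 2 was 2.27.

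The receptor with the longest transcript had the lowest fold change and the one with the shortest had the fold change nearest 0, while the 4 between did not follow that order. The longest annotated transcript was 4182 bp for Ifnlr1, 3909 bp for Ifnar1, 3708 bp for Ifngr2, 3047 bp for Ifnar2, 2791 bp for Il10rb and 2112 bp for Ifngr1, against a median of 3018.5 bp over tested genes. After correction for length and GC content the log2 fold changes were -0.34 for Ifnlr1, -0.28 for Il10rb, -0.25 for Ifngr2, -0.12 for Ifnar1 and -0.05 for both Ifnar2 and Ifngr1. Ifnlr1 and Il10rb were the lowest of the 6 in that setting, where the median of all tested genes was -0.02, and neither passed after adjustment in limma.

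**Figure D4:**
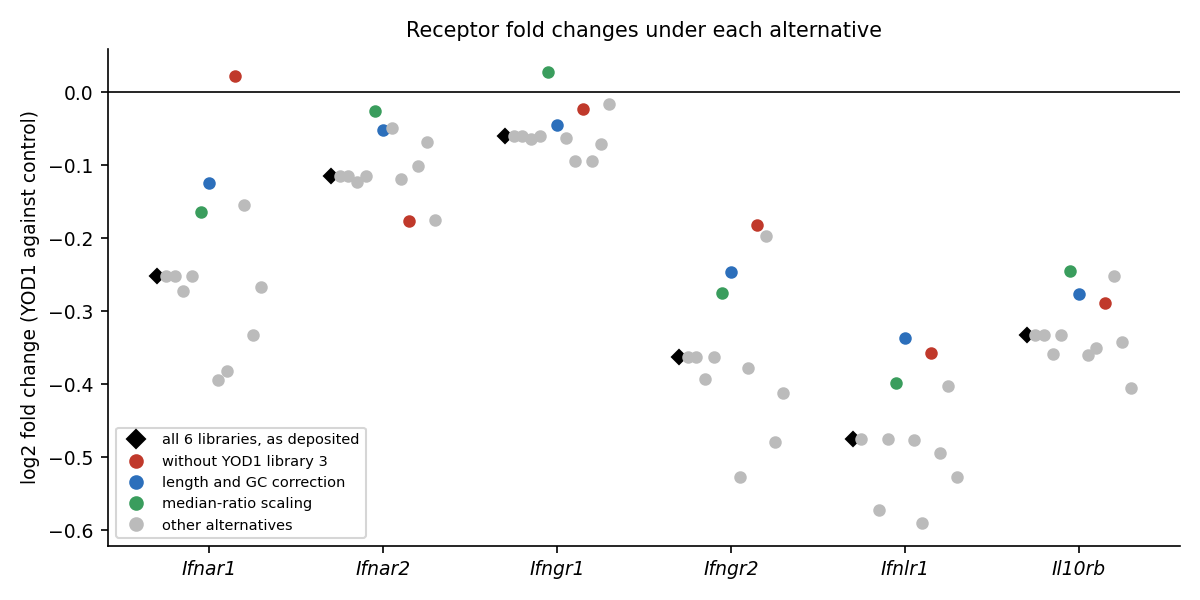
Log2 fold change of each receptor gene in the comparison of all 6 libraries (black diamonds) and under each alternative (circles). All values of Ifnlr1 lie between -0.59 and -0.34 and all values of Il10rb between -0.41 and -0.24, while Ifnar1 crosses 0 without YOD1 library 3 and Ifngr1 with median-ratio scaling.

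In the mouse genome Ifnar2, Il10rb, Ifnar1 and Ifngr2 lie next to one another on chromosome 16, in that order among protein-coding genes of the RefSeq gene table, while Ifnlr1 lies on chromosome 4 and Ifngr1 on chromosome 10. The 6 protein-coding genes on each side were read from the same table. Of these 12, 11 are in the deposited table and 8 were tested, of which 0 were called in either direction by limma. The neighbours had fold changes of both signs. Tmem50b, a membrane protein gene directly beyond Ifngr2, stood at 19.6, 18.8 and 15.1 FPKM in the controls and at 9.74, 10.9 and 8.48 FPKM in the YOD1 libraries, without overlap (log2 fold change -0.81, adjusted p = 0.0584 in limma). It passed without control 3 (-0.92, adjusted p = 0.0327 in limma), where genes called lower over all genes rose from 4 to 97. It did not pass without control 1 (adjusted p = 0.202 in limma) or without control 2 (0.236). Dnajc28, the next gene, was also lower without overlap (log2 fold change -0.60, adjusted p = 0.15 in limma), as were 19.1% of all tested genes. Gart, an enzyme gene of purine synthesis and the gene after that, had a log2 fold change of 0.40 (adjusted p = 0.238 in limma), and Son, a splicing cofactor, had -0.48 (adjusted p = 0.278 in limma). Donson, a replication fork gene, had -0.18 (adjusted p = 0.528 in limma). On the other side Olig1, Olig2 and 4932438H23Rik were under the filter, Paxbp1 had -0.37 and Synj1 -0.30, and Cfap298 had 0.77 (adjusted p = 0.274, 0.345 and 0.0755 in limma). Cfap298 passed without YOD1 library 3 (adjusted p = 0.0145 in limma), where genes called higher over all genes rose from 51 to 107. Paxbp1 too was lower without overlap, and Cfap298 was higher without overlap, as were 9.77% of all tested genes. After length and GC correction Synj1 was at -0.01, Paxbp1 at -0.19 and Son at -0.20, and without YOD1 library 3 they were at -0.14, -0.19 and -0.20 and Donson at -0.07. Donson was at -0.31 without YOD1 library 2, and Gart at 0.25 without control 1. Receptor genes of the cluster lay between -0.36 and -0.11, within the range of the tested neighbours.

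**Figure D5:**
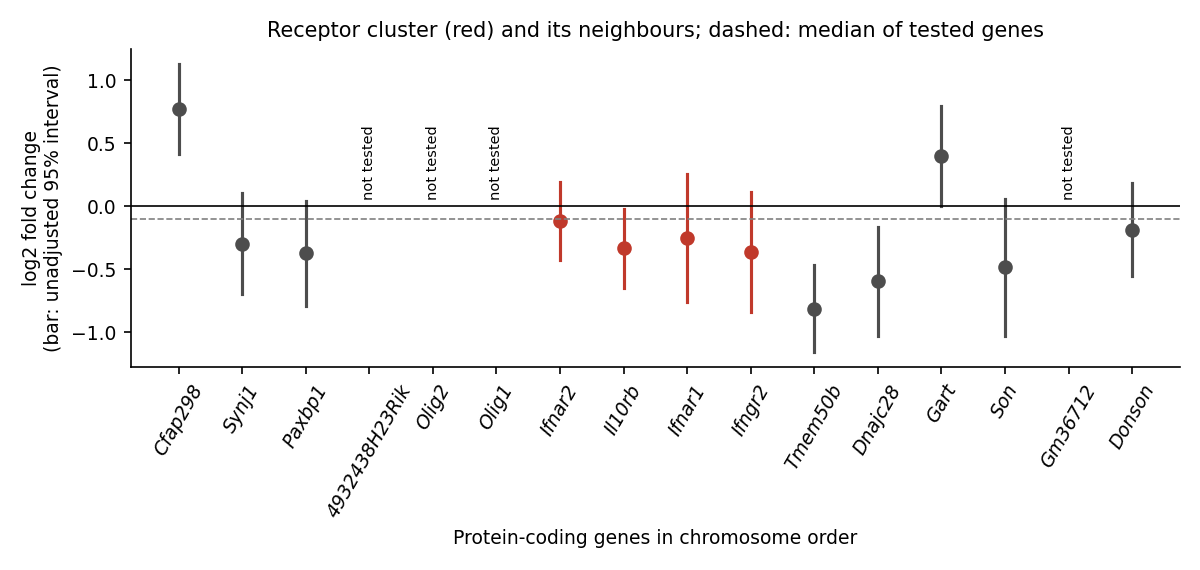
Log2 fold change with unadjusted 95% interval (vertical axis) for the 4 clustered receptor genes and the 6 protein-coding genes on each side, in chromosome order (horizontal axis, not to scale). Tmem50b, directly beyond Ifngr2, is lowest at -0.81 and Cfap298 highest at 0.77, and the 4 receptor genes lie between -0.36 and -0.11.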

How the data were processed

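RNA selected for poly(A) from 6 TCMK1 libraries, 3 control and 3 YOD1, was sequenced in paired ends, per the labels' protocols. Per the file headers, the deposited table holds the FPKM of every gene in every library. Further deposited columns are a fold ratio between the groups and its log2. The deposited p-value and q-value come from a test that the sources used here do not give. Build mm8 and the tools Bowtie 0.12.2, HISAT2 2.0 and StringTie 1.3.0 are named in the submitters' processing notes. Columns of per-sample values left unused numbered 0. FPKM keeps no read depth, so no counting interval is given. Strand is not stated, so reads of overlapping or antisense genes cannot be assigned with certainty.

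Values were taken as log2(FPKM + 1) for genes that reached 1 FPKM in 3 or more libraries and compared with limma 3.58.1 in R 4.3.3 (intensity trend, two-sided, Benjamini-Hochberg over all tested genes, threshold 0.05). The fit was tested on simulated data with noise drawn independently for each gene and library. That simulation held no library-wide differences, such as those with transcript length, so it cannot check the fit against them. Fold changes on this scale understate the change of low genes. Chain ratios were compared by exact permutation with scipy 1.17.1. Transcript length and GC content came from the longest GENCODE M21 transcript, found for 99.2% of tested genes, and were removed by splines with 4 degrees of freedom. That annotation and the RefSeq tables belong to another build than mm8 and were joined by identifier or symbol. No receptor protein sequence was used here. Tables were handled with Python 3.11.15, pandas 2.3.3 and numpy 2.4.6, and plots drawn with matplotlib 3.10.9.

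The members, gene lists and tests were chosen with earlier results of these data known. Named were all receptors and transducers, called members or up to 4 of the highest mean level of other lists, the 3 genes most like each receptor, and the cluster's neighbours, apart from items not reported here, with further list members added as examples after their values were seen. Alternatives were no filter, a filter at 5 FPKM, the replicate number as a block, a pseudocount of 0.1, median-ratio scaling, length and GC correction, and each library left out. Overlap of the groups with a library left out, and target medians over genes at 1 FPKM in all controls, were added after seeing the data.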

Additional observations from a re-analysis of the deposited data

How the results depend on the processing

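No receptor passed the adjusted limma test in any of 71 alternative values, and 69 kept the sign. Leaving out 1 library at a time gave Ifnar1 values of -0.39 to 0.022, the latter without YOD1 library 3, and Ifngr1 was 0.028 with median-ratio scaling. The group difference in the Ifnar1 to Ifnar2 log2 ratio ranged from -0.345 to 0.198 in the same way. Of 508 such values of the other 43 named genes with a test, 23 changed sign, 9 passed and 7 no longer passed. Median-ratio scaling gave F3 0.073, Ptpn6 0.038, Hgs 0.061, Rbx1 0.062, Irf1 0.025. Length and GC correction gave F3 0.019, Rbx1 0.10, Btrc 0.12, Eif2ak2 0.16. With 1 library left out the ranges of those that changed sign were Il22ra1 -0.21 to 0.034, F3 -0.19 to 0.27, Stat2 -0.20 to 0.34, Ptpn1 -0.068 to 0.11, Ptpn6 -0.17 to 0.020, Hgs -0.11 to 0.046, Rbx1 -0.17 to 0.11, Irf1 -0.16 to 0.039, Eif2ak2 -0.52 to 0.30. The cause of these turns was not tested. Ifnlr1 and Il10rb, whose groups do not overlap, cannot come to overlap when a library is left out, so that setting is no check on them. Ifnar2 joined them without control 3, where 26.6% of tested genes were lower without overlap, and Ifngr2 without YOD1 library 1 (23.5%). Over all genes, calls numbered 51 higher and 4 lower. They were 33 and 8 with the replicate block, 136 and 8 with median-ratio scaling, 26 and 7 after length and GC correction, and 17 to 145 and 1 to 97 when 1 library was left out (145 and 97 without control 3, 107 and 25 without YOD1 library 3). With no filter limma called 0 and 0, with 3427 genes at an unadjusted p under 0.05. Equal replicate numbers mark no stated pair, and the deviations of same-numbered libraries from their group means correlated across genes at 0.30, -0.12 and -0.11, and not every library correlated best with its own number. The block changed no receptor call. Jak2, Paxbp1, Dnajc28 and Yod1 moved by over 1.5 times with a pseudocount of 0.1, to -0.51, -0.57, -1.06 and 1.81. So did Eif2ak2 and F3, which were close to 0 in the main fit, to -0.26 and -0.018. Ifnlr1 did not pass the filter at 5 FPKM.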

Other observations

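Genes whose levels ran most like each receptor over the 6 libraries were ranked by Pearson r of log2(FPKM + 1) among 6924 tested genes with a mean of at least 5 FPKM. With 6 libraries in 2 groups high values are common, so they are a description only, with all points sharing the same libraries. For Ifnar1 the nearest were Slc25a30 (r = 0.998), Etf1 (0.997) and Prim1 (0.996), and 227 genes exceeded 0.95. For Ifnar2 the nearest were Spns1 (r = 0.991), Ttll1 (0.986) and Recql5 (0.983), and 27 genes exceeded 0.95. For Ifngr1 the nearest were Larp1 (r = 0.979), Tctn3 (0.964) and Abcc4 (0.964), and 13 genes exceeded 0.95. For Ifngr2 the nearest were Dlst (r = 0.994), Hdac1 (0.994) and Dolk (0.990), and 70 genes exceeded 0.95. For Ifnlr1 the nearest were Wipf2 (r = 0.999), Ptpn21 (0.998) and Supt6 (0.994), and 162 genes exceeded 0.95. For Il10rb the nearest were Hoxb9 (r = 0.995), Birc5 (0.990) and Idh1 (0.990), and 86 genes exceeded 0.95. Ifngr1, the most even receptor, had the fewest such genes and Ifnar1 the most.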
